A study of Helianthus annuus with 6 samples.

Results

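The subject is 150 annotated genes that were expressed in the petioles of both of 2 sunflower lines and stood higher in one of them, the leaf-compact line 20G. The petiole is the stalk that carries the leaf blade. Transcript levels were measured by RNA sequencing of petioles of cultivated sunflower (Helianthus annuus). Line 20G is an inbred line whose leaves are held close to the stem, with a small petiole inclination angle, and it is set against 19G, an inbred line with flat leaves and a large angle. There were 3 libraries of 20G and 3 of 19G. No treatment, plant age or growth condition is given for either line in the labels, and each leaf type is represented by 1 line, so leaf type and every other difference between the lines cannot be told apart.

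The 150 genes were chosen on the measured values themselves. A gene had to carry a RefSeq LOC identifier, to reach at least 5 FPKM in all 6 libraries, and to have its lowest 20G value above its highest 19G value. FPKM counts sequenced fragments after division by the length of the transcript and by the size of the library. The 100 loci with the highest mean FPKM were left out. The genes left were ranked by the mean log2(FPKM + 1) of 20G minus that of 19G, and the 150 largest differences were taken. The files list 70842 loci, of which 57126 carry LOC identifiers. The level requirement left 11593 of these, and 11500 after the most abundant loci were removed. These 11500 genes are called the pool. In 1580 pool genes, 13.7%, every 20G value exceeded every 19G value, and the 150 are the top of those. In 1163 pool genes, 10.1%, the lines were separated the other way. Because the choice used all 6 libraries, the line differences of the 150 genes are given as a description, and no test of them is read as support.

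Petiole angle is set by how fast cells elongate on the upper and lower sides of the stalk and by how the organ responds to gravity and light, processes in which the hormone auxin and the cell wall take part. Inbred lines of a crop can differ in the level of a transcript because the gene itself or its regulatory sequence differs, or because a regulator elsewhere in the genome differs. Genes that remain active in both lines, as these do, are cases of a graded difference in level and not of presence against absence. Neither the files nor the gene table used here pair the LOC identifiers with products, so no function is given to any gene, and the identity of the tissue was not checked against marker genes. The libraries are of bulk tissue, in which fewer cells that express a gene and less RNA per cell cannot be told apart.

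Sequencing depth is unknown, because FPKM carries no counts. The values summed to 660268, 701884 and 666907 FPKM in the 20G libraries and to 685174, 638235 and 658272 FPKM in the 19G libraries. Replicate 1 of 19G stood apart from its line. In 13.5% of pool genes it was more than 2-fold away from the mean of its line mates, against 1.26% to 4.87% of pool genes for each of the remaining 5 libraries. The median difference and the groups of genes defined by this library are given with and without it.

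The 150 genes were moderately to strongly expressed in 20G and weakly to moderately expressed in 19G. Their mean level in 20G ran from 23.1 to 676 FPKM with a median of 89.4 FPKM. In 19G it ran from 5.88 to 173 FPKM with a median of 20.1 FPKM. The pool had a median of 19.3 FPKM in 20G and 19.0 FPKM in 19G, so the genes sat near the middle of the pool in 19G and well above it in 20G. Together they made up 2.87%, 2.46% and 2.86% of summed FPKM in the 20G libraries, against 0.917%, 0.671% and 0.474% in the 19G libraries. The share was therefore separated between the lines in every library, which the rule fixes, and within 19G it was highest in replicate 1 and lowest in replicate 3.

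**Figure D1:**
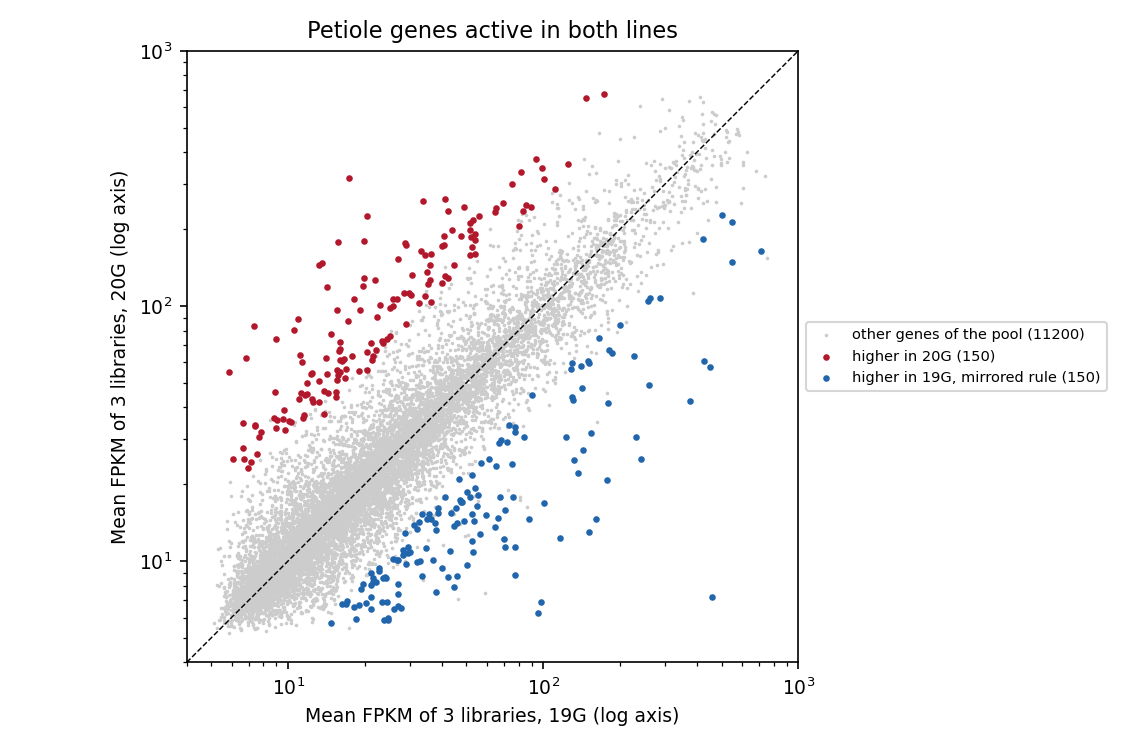
Mean FPKM in 20G (vertical, log axis) against mean FPKM in 19G (horizontal, log axis), each over 3 libraries; each point is a gene of the 11500, the dashed line marks equal levels, and colours mark the 150 genes higher in 20G and the 150 of the mirrored rule higher in 19G. The 150 genes lie above the line over the whole range, with 20G means of 23.1 to 676 FPKM.

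The difference between the lines was graded. On the log2(FPKM + 1) scale it ran from 1.58 to 3.47, with a median of 1.99 and quartiles of 1.72 and 2.28. It was at least 3 in 10 genes, from 2.5 to 3 in 13, from 2 to 2.5 in 52 and under 2 in 75. As a plain ratio of mean FPKM, 20G over 19G, the median was 3.88, the ratio was at least 4 in 65 genes and at least 8 in 12. Over all 28292 loci tested in the series the median log2 difference was 0.02, and over the pool it was 0.03. Of the 150 genes, 130 were also called higher in 20G by limma, where a call needs a log2 difference of 1 or more together with a Benjamini-Hochberg adjusted p below 0.05. That call was made for 8.44% of all tested loci and for 2.68% of pool genes, and a call in either direction for 17.1% of all tested loci. Nothing is read from the count of 130, because the genes were chosen on the same contrast. The mirrored rule, applied to genes higher in 19G, gave 150 genes with a median log2 difference of -1.44.

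The largest difference was that of LOC110938042, which stood at 231, 219 and 227 FPKM in the 20G libraries and at 12.9, 27.4 and 20.7 FPKM in the 19G libraries. The values of 20G lay close together, with a coefficient of variation of 2.69%, and the lowest of them was 7.996 times the highest of 19G. No other gene of the 150 had so wide a gap between the lines. Its log2 difference was 3.47.

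LOC118482999 followed, at 204, 122 and 206 FPKM in 20G and 14.4, 19.1 and 13.5 FPKM in 19G, a log2 difference of 3.395. LOC110891165 stood at 149, 112 and 173 FPKM in 20G and 10.7, 12.5 and 16.5 FPKM in 19G, a log2 difference of 3.35. LOC110907090 stood at 70.4, 73.2 and 106 FPKM in 20G and 7.79, 9.07 and 5.12 FPKM in 19G, a log2 difference of 3.35. In all 3 genes the libraries of a line lay close together compared with the distance between the lines, and the lowest 20G value was 6.36, 6.81 and 7.76 times the highest 19G value. LOC110890958, with a log2 difference of 3.01, belonged to the same kind: 67.1, 46.4 and 51.7 FPKM in 20G stood against 5.62, 6.71 and 5.31 FPKM in 19G, with a ratio of 6.91 between the nearest values. These 4 genes and LOC110938042 were the 5 with the widest gap between the lines.

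Another 3 of the 12 also kept the lines well apart. LOC110937058 stood at 68.2, 74.8 and 45.1 FPKM in 20G and 9.71, 5.67 and 5.08 FPKM in 19G. LOC110872099 stood at 89.2, 101 and 75.3 FPKM in 20G and 9.24, 10.3 and 13.3 FPKM in 19G. LOC110940843 stood at 102, 100.1 and 153 FPKM in 20G and 5.49, 16.9 and 20.4 FPKM in 19G, with 19G replicate 1 the low library. Their log2 differences were 3.04, 2.91 and 3.11, and that of LOC110940843 was 2.58 without 19G replicate 1.

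In the other 4 of the 12 at least 1 library lay far from its line mates. LOC110937550 stood at 233, 23.4 and 696 FPKM in 20G and 8.13, 22.4 and 21.4 FPKM in 19G. Its 20G replicate 2 was 1.05 times the highest 19G value, so the lines were barely separated, and the log2 difference of 3.23 became 4.58 without that library. LOC110930397 stood at 284, 65.1 and 189 FPKM in 20G, again lowest in replicate 2, and 22.7, 11.1 and 25.6 FPKM in 19G. LOC110883620 stood at 71.7, 214 and 156 FPKM in 20G, where replicate 1 was the low library, and 18.7, 7.01 and 15.2 FPKM in 19G, where replicate 2 was. Its SD on the log2 scale was 0.80 within 20G and 0.68 within 19G. LOC110873401 was even in 20G, at 96.6, 103 and 88.8 FPKM, but in 19G stood at 35.8 FPKM in replicate 1 against 5.74 and 5.03 FPKM in the other libraries, and its log2 difference was 3.08 with 19G replicate 1 and 3.93 without it.

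**Figure D2:**
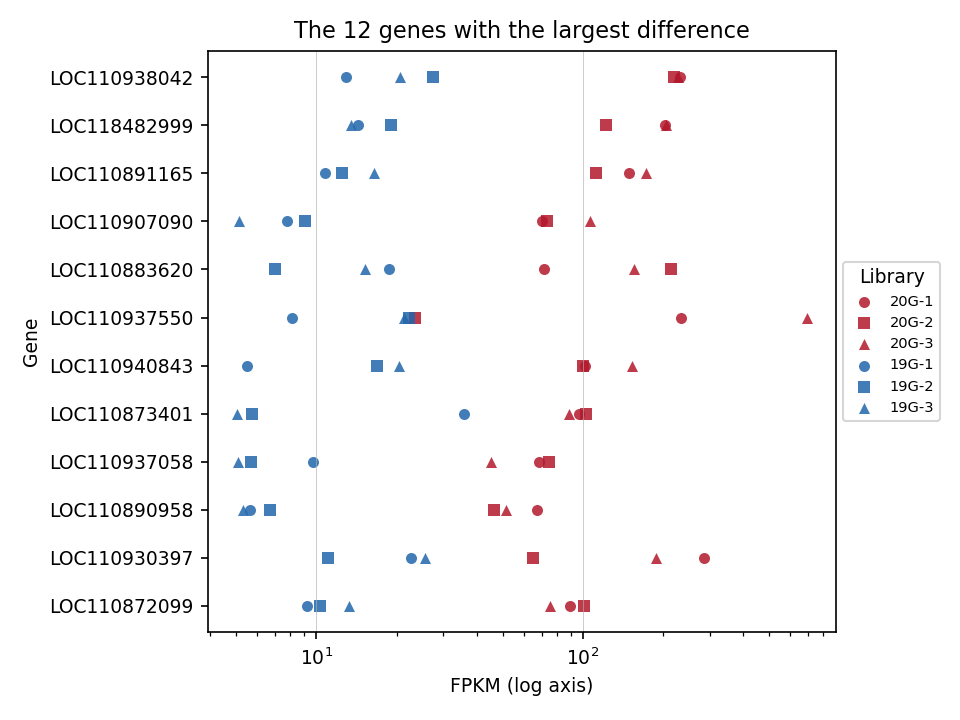
FPKM (log axis) of the 12 genes with the largest line difference, 1 gene a row; red symbols are the 20G libraries, blue symbols the 19G libraries, and the symbol shape is the replicate. LOC110938042 has its 20G values together at 219 to 231 FPKM, while LOC110937550 has 20G replicate 2 at 23.4 FPKM, beside its 19G values.

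The most abundant of the 150 genes were not those with the largest differences. LOC110877175 stood at 723, 594 and 710 FPKM in 20G and 265, 159 and 96.6 FPKM in 19G. LOC110895465 stood at 632, 652 and 671 FPKM in 20G and 141, 145 and 156 FPKM in 19G. LOC110871998 stood at 392, 427 and 315 FPKM in 20G and 149.96, 76.8 and 54.8 FPKM in 19G. The log2 differences of these 3 genes were 2.07, 2.14 and 2.11, close to the median of the 150. Of the 3, LOC110895465 had nearly equal values within each line, whereas LOC110877175 and LOC110871998 were highest in 19G replicate 1 and lowest in 19G replicate 3. LOC110895124 and LOC110922604, the other two of the 5 most abundant, averaged 359 ± 40.0 and 347 ± 41.8 FPKM in 20G and 125 ± 141 and 98.5 ± 81.1 FPKM in 19G (SD, n = 3). Their SD in 19G was thus as large as, or nearly as large as, the mean.

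Larger differences were found at higher levels in 20G. In the 50 genes with the lowest 20G means, 23.1 to 60.7 FPKM, the median log2 difference was 1.75. In the 50 in the middle, 61.2 to 133 FPKM, it was 2.00, and in the 50 with the highest means, 136 to 676 FPKM, it was 2.19. Spearman's rho between 20G mean and difference was 0.45 across the 150 genes, which share the same libraries. The 20G level is part of the difference, so this relation is partly fixed. The level requirement also acts on it: in all 150 genes the lowest value was a 19G value, in 61 genes it was under 10 FPKM, and in 19 it was under 6 FPKM.

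Some of the 150 genes varied little between the libraries of a line. In 18 of the 150 the highest value was within 1.5 times the lowest in both lines. The same held for 43.1% of pool genes and for 39 of the mirrored 150, so such evenness was less common among the 150 genes. The log2 differences of the 18 genes ran from 1.59 to 3.01 with a median of 1.89. The smallest spread was that of LOC110895465, already described, with a within-line SD of 0.06 on the log2 scale. LOC110913063 stood at 25.01, 24.3 and 25.6 FPKM in 20G and 7.91, 5.89 and 6.38 FPKM in 19G. LOC110879147 stood at 34.7, 39.2 and 30.1 FPKM in 20G and 6.04, 6.60 and 7.37 FPKM in 19G. These genes were weakly expressed in 19G and kept to a narrow range in both lines. LOC110913487 stood at 112, 129 and 151 FPKM in 20G and 38.8, 44.4 and 40.7 FPKM in 19G. LOC110885340 stood at 47.6, 46.3 and 40.8 FPKM in 20G and 10.2, 11.1 and 13.8 FPKM in 19G. The 20G means of the 5 steadiest genes ran from 24.98 to 652 FPKM, so even values were found at low and at high expression. Their log2 differences, from LOC110895465 to LOC110885340 in the order given, were 2.14, 1.76, 2.21, 1.63 and 1.86.

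Most of the 150 genes varied more between libraries than the pool, and they varied mainly in 19G. The median SD on the log2 scale was 0.31 within 20G and 0.60 within 19G, against 0.20 and 0.27 over the pool. The spread was wider in 19G than in 20G in 108 of the 150 genes, or 72.0%, and in 62.9% of pool genes. In 33 genes the highest 20G value was at least 2 times the lowest, and in 90 genes the highest 19G value was. The same held for 8.31% of pool genes in 20G and 19.1% in 19G. Among the mirrored 150 genes, 30 spread at least 2-fold in 20G and 48 in 19G. The mirrored set is not a like comparison. Its smallest log2 difference was -1.11, against 1.58 for the 150 genes, and separated lines leave less room for spread where the difference is small. Ranking on large differences favours genes with wide spread, and the difference in spread was not tested.

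**Figure D3:**
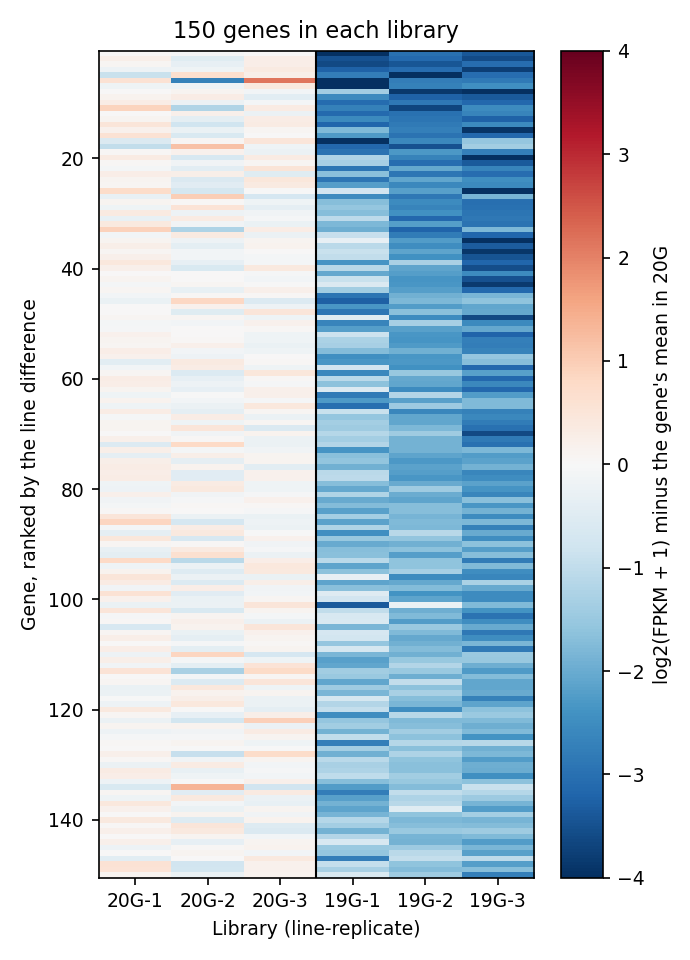
Each row is 1 of the 150 genes in order of line difference (largest at the top) and each column a library; colour is log2(FPKM + 1) minus the gene's mean in 20G. The 20G columns centre on 0 because each gene's 20G mean was subtracted. The 19G columns differ among themselves, with replicate 3 lowest in 88 genes and replicate 1 highest of its line in 85.

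The libraries of 19G did not share the low level evenly. Replicate 1 was the highest of its line in 85 of the 150 genes, or 56.7%, and replicate 3 was the lowest in 88, or 58.7%. In 74 genes, or 49.3%, both held, with replicate 2 between. Over the pool replicate 1 was the highest in 26.9% of genes and replicate 3 the lowest in 20.4%, and both held in 13.9%. Among the 1430 genes that passed the separation of lines but ranked below the 150 both held in 15.2%, and among the mirrored 150 genes in 18.7%. The median level of the 150 genes was 22.2 FPKM in 19G replicate 1, 20.8 FPKM in replicate 2 and 13.9 FPKM in replicate 3. In 20G the medians were 96.6, 78.5 and 87.7 FPKM.

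Set against each 19G library alone, the mean of 20G was higher by a median of 1.68 on the log2 scale for replicate 1, 1.98 for replicate 2 and 2.45 for replicate 3. Without 19G replicate 1 the median difference of the 150 genes was 2.19 in place of 1.99, and without 19G replicate 3 it was 1.77. Replicate 1 was not the only 19G library to stand apart in the 150 genes. It was more than 2-fold from the mean of its line mates in 44.0% of them, against 13.5% of pool genes. For replicate 2 the shares were 14.7% and 2.83%, and for replicate 3 they were 38.0% and 4.87%. What part any single 19G library had in these differences was not tested.

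In 34 of the 150 genes, 22.7%, 19G replicate 1 was at least 2-fold above both other libraries of its line, against 4.07% of pool genes and 12 of the mirrored 150. The median level of these 34 genes was 74.1 FPKM in 19G replicate 1, 28.6 FPKM in replicate 2 and 14.1 FPKM in replicate 3, while in 20G the medians were 152, 118 and 132 FPKM. That replicate 1 lay nearest to 20G in these genes follows from how they were picked. The median log2 difference of the 34 genes was 2.12 with all libraries and 2.80 without 19G replicate 1.

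The clearest of these genes was LOC110895124, at 382, 313 and 383 FPKM in 20G and 284, 75.1 and 16.9 FPKM in 19G. Its 19G replicate 1 lay just below its lowest 20G value, and its log2 difference was 2.30 with all libraries and 3.28 without 19G replicate 1. LOC110897294 stood at 334, 333 and 279 FPKM in 20G and 224, 54.5 and 24.96 FPKM in 19G. LOC110867770 stood at 162, 179 and 169 FPKM in 20G and 114, 33.4 and 10.99 FPKM in 19G. Both were even in 20G and uneven in 19G, with replicate 1 the high library. LOC110923487 was uneven in both lines, at 207, 76.2 and 124 FPKM in 20G and 72.9, 27.0 and 5.40 FPKM in 19G, so that its 20G replicate 2 barely exceeded its 19G replicate 1. Without 19G replicate 1 the log2 differences of LOC110897294, LOC110867770 and LOC110923487 were 3.05, 3.07 and 3.24, against 2.20, 2.24 and 2.42 with it.

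The opposite pattern was rarer. In 11 of the 150 genes, 7.33%, 19G replicate 1 was at least 2-fold below both other libraries, against 5.77% of pool genes and 16 of the mirrored 150. The median log2 difference of the 11 genes was 2.08 with all libraries and 1.62 without 19G replicate 1. LOC110940221 stood at 166, 168 and 281 FPKM in 20G and 18.6, 165 and 57.9 FPKM in 19G. Here 19G replicate 2 almost reached the level of 20G, and the log2 difference was 1.80 with all libraries, 2.56 without that library and 1.02 without 19G replicate 1. LOC110941490 stood at 98.1, 154 and 205 FPKM in 20G and 7.81, 23.3 and 49.5 FPKM in 19G, a log2 difference of 2.73 with all libraries and 2.07 without 19G replicate 1. LOC110921021 stood at 41.0, 55.3 and 72.2 FPKM in 20G and 7.17, 27.9 and 26.1 FPKM in 19G. In both genes 19G replicate 1 was the low library, and in LOC110921021 the log2 difference was 1.59 with it and 0.99 without it. LOC110929598 stood at 62.7, 43.6 and 77.3 FPKM in 20G and 8.01, 29.6 and 26.6 FPKM in 19G, and its log2 difference was 1.62 with 19G replicate 1 and 1.06 without it. LOC110911851 stood at 57.3, 59.9 and 49.2 FPKM in 20G and 7.48, 24.3 and 25.1 FPKM in 19G, and its log2 difference was 1.67 with 19G replicate 1 and 1.13 without it.

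**Figure D4:**
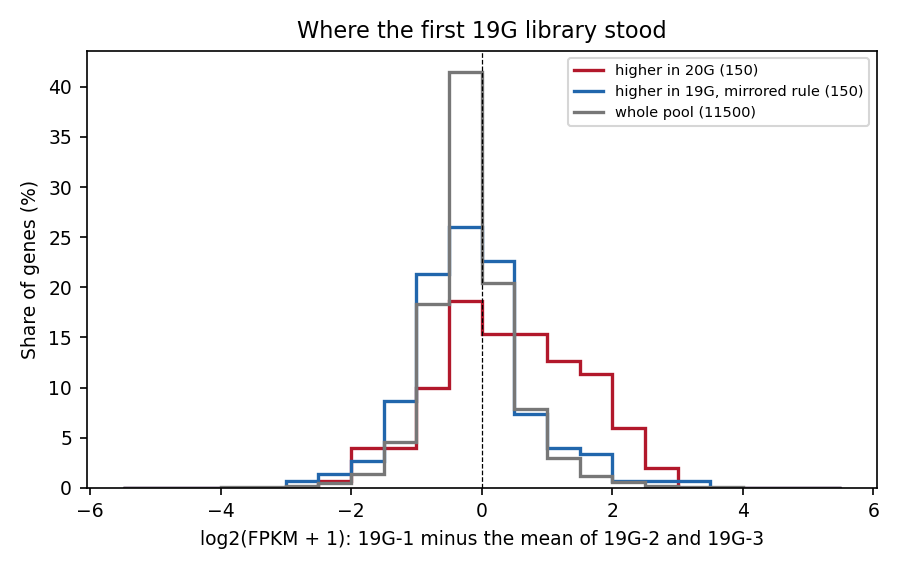
Share of genes (vertical, percent) by how far 19G replicate 1 lay from the mean of the other 19G libraries (horizontal, log2(FPKM + 1), steps of 0.5), for the 150 genes higher in 20G, the mirrored 150 and the pool of 11500. The 150 genes are shifted to the right, with a median of 0.44 against -0.20 in the pool and -0.20 in the mirrored set.

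The 20G libraries were more alike. The highest value of 20G was in replicate 1 in 58 genes, in replicate 2 in 47 and in replicate 3 in 45, and the lowest was in replicate 2 in 73 genes. Replicate 2 was the lowest of its line in 41.8% of pool genes as well. It lay at least 2-fold below both other libraries in 7 of the 150 genes, 4.67%, against 1.26% of pool genes. It lay at least 2-fold above both in 6 genes, 4.00%, against 0.83% of pool genes. LOC110937550, at 23.4 FPKM in replicate 2 against 233 and 696 FPKM, had the widest spread of all 150 genes in 20G.

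The end of the ranking showed how gradual the choice was. The last 3 genes inside were LOC110865469, LOC110941595 and LOC110928450, with log2 differences of 1.58 each. LOC110865469 stood at 58.6, 22.8 and 44.1 FPKM in 20G and 19.7, 12.2 and 7.73 FPKM in 19G. LOC110928450 stood at 306, 237 and 317 FPKM in 20G and 186, 106 and 42.2 FPKM in 19G. In both genes the lowest 20G value stood not far above the highest 19G value. LOC110941595 stood at 70.8, 28.6 and 54.5 FPKM in 20G and 19.0, 13.7 and 14.0 FPKM in 19G. The first 3 genes outside, LOC110885086, LOC110921193 and LOC110941932, had log2 differences of 1.56, 1.56 and 1.55. LOC110885086 stood at 99.98, 102 and 69.1 FPKM in 20G and 59.4, 23.4 and 18.3 FPKM in 19G. LOC110921193 stood at 27.4, 22.7 and 29.4 FPKM in 20G and 11.1, 7.56 and 6.74 FPKM in 19G. LOC110941932 stood at 15.5, 76.7 and 14.8 FPKM in 20G and 6.31, 9.08 and 10.03 FPKM in 19G. The last of these had 1 high library in 20G and 2 that were not far above 19G.

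Position in the genome was not part of the choice. All 150 identifiers matched protein-coding entries of a RefSeq gene table made for the assembly HanXRQr2.0-SUNRISE. The sources used here do not name the build behind the files, so no coordinates are given and the table served for gene order, span and number of transcripts. Among 23108 tested RefSeq genes in that order, 10 of the 150 genes, 6.67%, had another of the 150 as their next tested gene on one side. The same count was 13 of 149 placed genes, 8.72%, for the mirrored set. Within 5 tested genes the counts were 18 of the 150 and 21 of the 149. At most 5 of the 150 genes fell within any 50 consecutive tested genes.

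The 10 genes formed 5 pairs. LOC110917515 stood at 110, 68.4 and 140 FPKM in 20G and 12.8, 23.4 and 17.9 FPKM in 19G, and its partner LOC110917579 at 153, 108 and 216 FPKM in 20G and 19.6, 47.5 and 35.9 FPKM in 19G. Both had the same order of libraries within each line. LOC110940220 stood at 163, 160 and 194 FPKM in 20G and 26.7, 67.3 and 28.5 FPKM in 19G, and shared with its partner LOC110940221 the high value in 19G replicate 2. LOC110872842 stood at 42.1, 72.1 and 53.4 FPKM in 20G and 9.04, 24.7 and 12.8 FPKM in 19G, and LOC110872844 at 31.9, 47.3 and 30.1 FPKM in 20G and 7.22, 14.6 and 12.4 FPKM in 19G. These partners were highest in replicate 2 of each line and lowest in 19G replicate 1.

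The remaining pairs were LOC110941490 with LOC110872820 and LOC110883409 with LOC110883620. LOC110872820 stood at 184, 206 and 205 FPKM in 20G and 25.5, 51.5 and 54.6 FPKM in 19G, and like its partner LOC110941490 it was lowest in replicate 1 of both lines. LOC110883409 stood at 96.4, 44.6 and 73.9 FPKM in 20G and 34.3, 16.8 and 12.1 FPKM in 19G, with its lowest 20G value in replicate 2, the library in which its partner LOC110883620 was highest. Of the 5 pairs, 3 were also next to each other among all RefSeq genes of the table. No sequences were compared, and where partners are near-identical copies their reads could have been split between them, which makes single values uncertain.

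**Figure D5:**
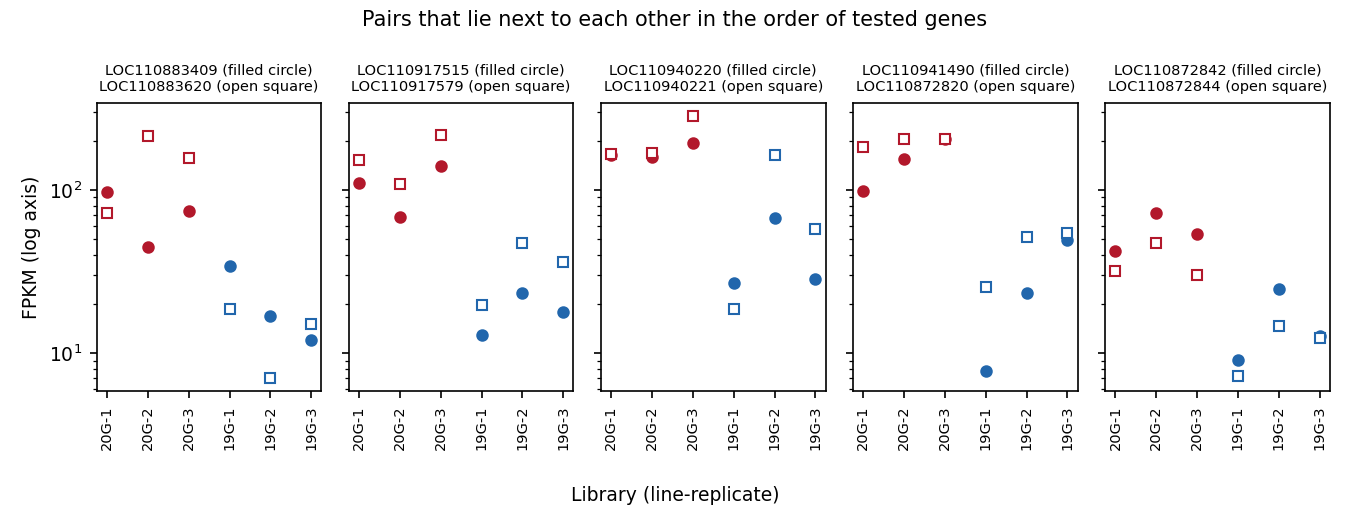
FPKM (log axis) in each library for the 5 pairs of genes that lie next to each other in the order of tested genes; red marks 20G and blue 19G, filled circles the first gene and open squares the second. In the pair LOC110940220 and LOC110940221 both genes have their highest 19G value in replicate 2, at 67.3 and 165 FPKM.

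Most genes beside the 150 were not called. Their immediate tested neighbours that were not among the 150 numbered 288. Of these, 23 were called higher in 20G, 7.99%, where 6.13% of tested RefSeq genes were, and 21 were called lower, 7.29%, where 5.39% were (limma, the call defined above). Their median log2 difference was 0.04, against 0.02 over the tested RefSeq genes. The tested RefSeq genes include the 150, of which 130 were called higher in 20G, while the neighbours leave them out. The 6.13% is thereby raised, so the excess in the 2 directions is not compared. It was small in both and was not tested.

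Span and number of transcripts were not part of the choice either. Their median genomic span in the gene table, introns included, was 1901 bases, against 2657 bases for the mirrored 150 and 3971 bases for the pool. More abundant genes of the pool had shorter spans, so the spans were also read within levels. Among genes with a mean over all libraries of 20 to 50 FPKM the median span was 2213 bases for 64 of the 150 genes and 3837 bases for the rest of the pool. At 50 to 100 FPKM it was 1813 bases for 39 genes against 3029 bases, and at 100 to 200 FPKM it was 1459 bases for 32 genes against 2604 bases. The 8 genes under 20 FPKM had a median of 3061 bases against 4556 bases, and the 7 genes at 200 FPKM or more had 959 bases against 2363 bases. More than 1 transcript was annotated for 18 of the 150 genes, for 26 of the mirrored 150 and for 29.0% of pool genes. From 20 FPKM up the gap was narrower within levels: the share with more than 1 transcript was 15.6% of the 150 against 25.1% of the rest of the pool at 20 to 50 FPKM, 10.3% against 17.9% at 50 to 100 FPKM and 6.25% against 15.3% at 100 to 200 FPKM. Among the 7 genes at 200 FPKM or more it was 14.3% against 12.8%, the other way round, and among the 8 under 20 FPKM it was 12.5% against 36.0%. LOC110878069 had the longest span, 25814 bases, and LOC110899171 the shortest, 345 bases, both named after their values were seen. Spans were not tested, and FPKM is itself divided by transcript length.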

How the data were processed

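RNA was sequenced from petioles of 3 libraries of line 20G and 3 of line 19G. Groups and replicate numbers come from the sample titles. Per the labels, the authors deposited FPKM values. The aligner, assembler, annotation and build: not given in the sources used here. The depth is unknown. No label says that the libraries came from separate plants, so the spread may be technical. Values were put on the log2(FPKM + 1) scale, on which changes of low genes come out too small. The 28292 loci that reached 1 FPKM in 3 libraries or more were fitted by limma 3.58.1 under R 4.3.3 (mean-variance trend, two-sided, Benjamini-Hochberg over all loci, no covariates). The fit was also run on simulated libraries with independent values and the same spread in both lines. The real libraries spread more widely in 19G, so that run does not cover them. Further steps used Python 3.11.15. Calls need a log2 difference of 1 or more and an adjusted p below 0.05. The members and lists were chosen with earlier results of these data known. Genes named are the 12 largest differences, 3 on each side of rank 150, the 5 most abundant in 20G, the 5 steadiest and 5 most variable, the 5 widest gaps, the 5 with 19G replicate 1 farthest above and below its line, and members beside each other; others are said to be named after seeing values. Copies, motifs and product lists, also planned, were not analysed here because no sequence or product table was at hand. Alternatives covered the pseudocount, filter, scaling, fit, rule and each library left out.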

Additional observations from a re-analysis of the deposited data

How the results depend on the processing

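The number of the 150 genes called higher in 20G stayed within 1.5 times the 130 reported, from 109 without a filter to 147 with array weights. With each library left out it ranged from 95 to 141, and the highest, 141, was without 19G replicate 1. The 20 genes not called included 14 in which 19G replicate 1 was over 2-fold from both others, and 14 of the 20 were called without that library. Over all tested loci, 4849 were called, 17.1% of them. A filter at a mean of 5 FPKM left 1860, which tests fewer loci by construction, and with each library left out the count ranged from 4345 to 5690. The median difference of the 150 genes, 1.99, ran from 1.77 to 2.19 with each library left out and from 1.96 to 2.05 under the other pseudocounts and scalings. The choice of genes depended most on the level requirement: 78 of the 150 were chosen again at 2 FPKM and 89 at 10 FPKM, since other genes then enter or the 150 fail the limit. With each library left out, 101 to 132 were chosen again, fewest without 19G replicate 3, and under the other changes to the rule 137 to 149. The number beside another of the 150 moved from 10 to 18 within 5 tested genes, and to 6 when all RefSeq genes of the table were counted. For 42 named genes, the 3 just outside the 150 included, 462 differences were computed under alternatives. Their sign could not turn when a library was left out, because the choice required separated lines, and it is no evidence of stability. A call was lost in 36 of them, from 8 genes (LOC110865469, LOC110873401, LOC110883409, LOC110885086, LOC110911851, LOC110922604, LOC110941490 and LOC110941595), under the 2 scalings or without a library other than 19G replicate 1. A call was gained in 16, from 9 genes, 6 of these values being those without 19G replicate 1. Whether replicate numbers pair the libraries across the lines was not settled. Between libraries of the same number, deviations from the line mean had correlations of 0.24, -0.01 and 0.13. Libraries of unlike number were not compared, so these values have no baseline. With the replicate block 144 of the 150 genes and 5126 loci were called. Planned results on close copies, promoter and protein motifs and product lists were not run, for lack of sequences and product names. Depth is unknown, so its limit cannot be stated.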

Other observations

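The genes below were named after their values were seen. In 8 pool genes the log2 difference was at least as large as the smallest of the 150, but the lines overlapped. LOC110864381 stood at 467, 576 and 380 FPKM in 20G and at 465, 19.0 and 11.9 FPKM in 19G, a log2 difference of 3.25. Its 19G replicate 1 was within the range of 20G, and its line mates were not. LOC110864375 and LOC110908604 had the same form, at 55.8, 137 and 46.1 FPKM in 20G against 52.7, 12.7 and 10.8 FPKM in 19G, and at 28.4, 55.8 and 20.6 FPKM in 20G against 21.2, 5.29 and 5.497 FPKM in 19G. So had LOC110895082, LOC110864812 and LOC110917531. Their 19G replicate 1 stood at 60.4, 63.5 and 108 FPKM, above their lowest 20G values of 58.3, 57.0 and 79.3 FPKM. LOC110924037 was the reverse, at 104, 197 and 213 FPKM in 20G and 11.9, 72.5 and 106 FPKM in 19G, with replicate 1 the low library of both lines. In LOC110921199 the overlap came from 19G replicate 2, at 65.4 FPKM against a lowest 20G value of 42.5 FPKM.

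Of the 100 most abundant loci, 1 would have been chosen by its values. LOC110915890 stood at 869, 1031 and 755 FPKM in 20G and 124, 220 and 310 FPKM in 19G, 4.06 times as high by the ratio of means. A further 770 LOC genes were separated between the lines with a log2 difference as large, but fell below 5 FPKM in at least 1 library. The 150 genes are thus the part of a larger set that lay above this limit, and 19 of them had a 19G value under 6 FPKM.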
